A study of Mus musculus with 5 samples.

Results

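The genes of histamine and of the IgE receptor were taken as 8 members, Hdc, Hnmt, Hrh1, Hrh2, Hrh4, Fcer1a, Fcer1g and Ms4a2, out of 21887 protein-coding genes on assembled chromosomes. They were chosen by name with the peaks of these libraries known, because Hdc lies beside one of the strongest c-Maf antibody sites and Fcer1a beside a weaker one. All deposited peaks inside each gene span or within 50 kb of it were collected, with mm10 coordinates. Chromatin immunoprecipitation followed by sequencing was performed on mouse macrophages of the C57Bl/6 background. The cells are labelled M2 BMM polarized in vitro, BMM being the usual short form of bone marrow macrophages, while every title has M0, so the activation state is uncertain. There were 2 libraries pulled down with a c-Maf antibody, c-Maf being a transcription factor of the basic leucine zipper class, 2 with normal rabbit immunoglobulin as isotype control, and 1 input library. The antibody and isotype libraries carry the numbers 3 and 4, and all 4 peak lists were called against the input of number 4. The labels give all libraries the same cell type and strain, and name no genotype and no agent used for polarization. Peaks do not measure expression, so the cell type label could not be checked against marker genes.

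Histamine is made from histidine by a single decarboxylase, stored in granules of mast cells and basophils, made on demand by other myeloid cells, and inactivated by methylation or oxidation. Its receptors are G protein-coupled. The high-affinity IgE receptor of mast cells and basophils joins an IgE-binding alpha chain, a beta chain that amplifies signalling, and a gamma chain dimer that macrophages also use with their immunoglobulin G receptors.

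The c-Maf antibody lists held 23434 peaks (number 3) and 17620 peaks (number 4), and the isotype lists 58732 (number 3) and 15568 (number 4). Depth was close to equal, at 21655683 to 22017759 tags per library after duplicate filtering. Most peaks were small, with a median of 6 tags at the summit in both c-Maf antibody lists, against 4 (number 3) and 5 (number 4) in the isotype lists. Summit tags were recovered from the authors' scaled pileup and came out whole within 0.02 for 100% of the peaks of each list. Intervals on tags are exact Poisson intervals at the 95% level and cover counting error only.

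Among the 8 members only Hdc and Fcer1a lay within 50 kb of a c-Maf-only region, that is, overlapping peaks of both c-Maf antibody libraries and no peak of either isotype library. Of all protein-coding genes, 3.17% had one. The selection of the members used these peaks, so the count of 2 is a description and carries no test. No member had an isotype-only region, the same definition with the antibodies exchanged, which 1.45% of all genes had. The other members had peaks too, but each of those lay in 1 list alone. In all, 64 peaks lay at the 8 members, and 60 of them (93.75%) overlapped no peak of another list, against 94.5% of the 115354 peaks of the series.

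**Figure D1:**
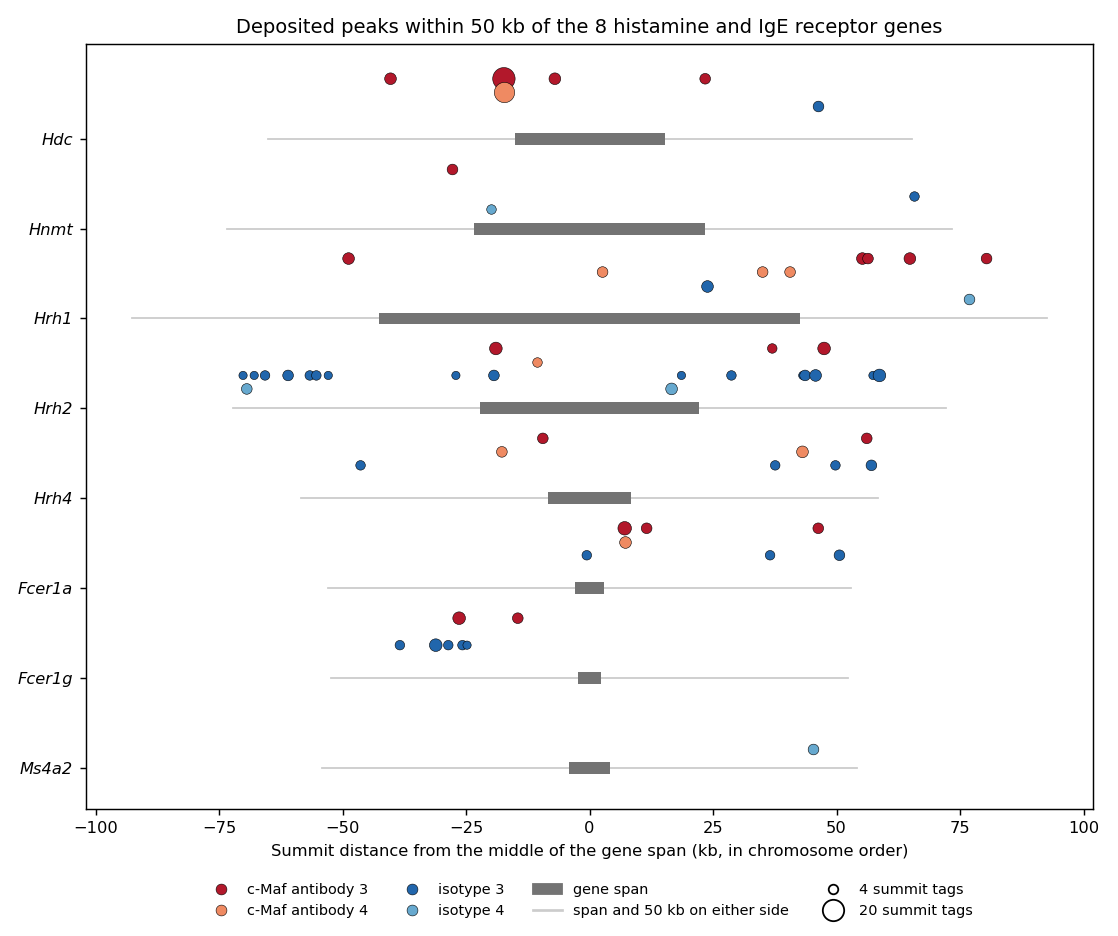
Positions of all 64 deposited peaks at the 8 members, by distance of the summit from the middle of the gene span in kb, with the c-Maf antibody libraries above the isotype libraries at each gene and the area of a point in proportion to its summit tags. Overlapping peaks of both c-Maf antibody libraries appear beside Hdc, with 22 and 18 tags, and beside Fcer1a, with 8 and 6 tags.

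Hdc encodes histidine decarboxylase, which turns histidine into histamine. Its site lay on chromosome 2 at 126591444 to 126591666, outside the gene span (126593659 to 126624025). In c-Maf antibody number 3 the peak ran from 126591448 to 126591666 (219 bp) with 22 tags at the summit (95% interval 13.8 to 33.3), and in c-Maf antibody number 4 from 126591444 to 126591626 (183 bp) with 18 tags (10.7 to 28.4). The summits lay 10 bp apart, and the shared stretch of 179 bp covered 81.7% of the peak of number 3 and 97.8% of that of number 4.

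The local input level at the site, worked back from the fold enrichment, was 0.69 for number 3 and 0.66 for number 4. Both values come from the 1 input library and are not separate measurements. They were taken at the fragment lengths given in the file headers, 63 bp (number 3) and 60 bp (number 4). The authors' fold enrichment, which has 1 added to both its parts, was 13.2 (number 3) and 11.3 (number 4), a mean of 12.3 ± 1.34 (SD, n = 2), and the −log10 q was 17.7 and 9.89. By fold enrichment the site stood at place 5 of 23434 in the list of number 3 and at place 1 of 17620 in that of number 4. These values chose Hdc and are given without a test. The plain ratio of pileup to input level was 30.8 (number 3) and 26.9 (number 4). In the isotype lists the largest fold enrichment of any peak was 10.8 (number 3) and 12.6 (number 4). Fold enrichments of about the size seen at Hdc thus also occurred with the isotype, at other positions.

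No isotype peak lay near the Hdc site. The nearest was 53.1 kb away in isotype number 3 and 112 kb away in isotype number 4. At input levels within 0.1 of those at the site, isotype peaks had at least 4 summit tags in both lists, so isotype coverage below that would not have been listed. A missing isotype peak therefore shows that no peak was called, not that the isotype libraries had no tags there.

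Hdc is transcribed from the minus strand, and the site lay beyond its far end. In number 3 the summit was 27.2 kb downstream of the annotated start at 126618678, and the edge of the peak was 1.99 kb from the gene boundary. The next gene on the other side was Slc27a2, a very long chain acyl-CoA synthetase and fatty acid transport gene on the plus strand, which ends at 126588243, 3.20 kb from the site. The site thus lay between the far ends of a pair of genes that run towards each other. The gene span used here reaches 5.35 kb past the annotated start. Hdc had 1 promoter window, so the distance of 27.2 kb holds for that start alone.

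The remaining peaks around Hdc were small. The c-Maf antibody library of number 3 had 3 more, of 6 tags inside Slc27a2, 6 tags inside Hdc (126601802 to 126601864, fold enrichment 4.03) and 5 tags inside Gabpb1. The library of number 4 had no further peak, isotype number 3 had 1 of 5 tags inside Gabpb1, and isotype number 4 had none within 50 kb.

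**Figure D2:**
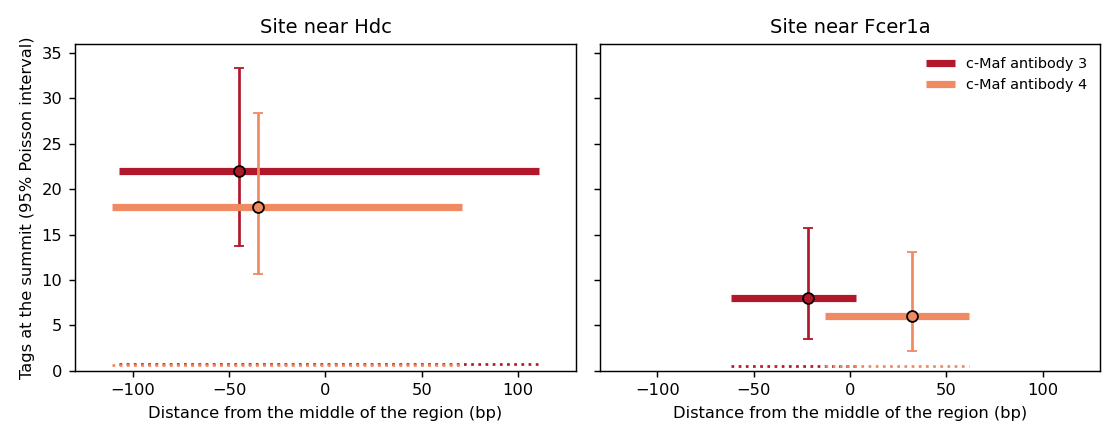
Extent of the c-Maf antibody peaks of numbers 3 and 4 at the sites near Hdc and Fcer1a, by distance from the middle of the region in bp, drawn at the height of their summit tags. Points mark the summits with 95% Poisson intervals, and dotted lines mark the input level. At Hdc the summits lay 10 bp apart, with 22 and 18 tags, and at Fcer1a 54 bp apart, with 8 and 6 tags.

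Fcer1a encodes the IgE-binding alpha chain. Its site lay on chromosome 1 at 173231329 to 173231453, upstream of the gene (173221269 to 173227232, minus strand). The peak of the c-Maf antibody library of number 3 had 8 summit tags (95% interval 3.45 to 15.8) and a fold enrichment of 5.64, and that of number 4 had 6 tags (2.20 to 13.1) and a fold enrichment of 4.53. The summits lay 4.14 kb (number 3) and 4.19 kb (number 4) upstream of the annotated start at 173227229. The mean fold enrichment was 5.08 ± 0.784 (SD, n = 2).

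The Fcer1a site was weaker and less sharply shared than the Hdc site. Its −log10 q was 1.56 in number 3, which passes a q-value of 0.05, and 0.229 in number 4, which does not. The summits lay 54 bp apart, and the peaks shared 17 bp, which is 25.8% of the peak of number 3 and 22.4% of that of number 4. These peaks were short, at 66 bp (number 3) and 76 bp (number 4), beside fragment lengths of 63 bp and 60 bp. By fold enrichment it stood at place 443 in the list of number 3 and at place 4228 in that of number 4. The nearest isotype peak was 7.59 kb away in number 3 and 64.4 kb away in number 4. At input levels within 0.1 of those at the site, isotype peaks had at least 3 tags (number 3) and 4 tags (number 4).

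Further peaks around Fcer1a were found in single lists. The c-Maf antibody library of number 3 had 2 more of 5 tags each, at 8.55 kb and 43.3 kb from the gene. Isotype number 3 had 3 peaks of 4, 4 and 5 tags, of which 1 lay inside Fcer1a (173223687 to 173223739, fold enrichment 3.46). The c-Maf antibody library of number 4 had no other peak there, and isotype number 4 had none.

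The promoter windows available for the members carried no peak of any list. RefSeq windows (GRCm38.p6, 250 bases before to 50 after the start) matched 7 of the 8 members with 11 windows, and 0 of the 11 overlapped a peak. Hrh4 had no window. The share of all 32851 windows that overlap a peak is not given here, so the 0 is not read as a trait of these genes. The windows of the members that have a site are printed to show the sequence from which those distances were measured, 5′ to 3′ along the gene, with matches of the letters searched in capitals. The Hdc window is chr2:126618629-126618928 and the Fcer1a window is chr1:173227180-173227479, both on the minus strand.
Hdc: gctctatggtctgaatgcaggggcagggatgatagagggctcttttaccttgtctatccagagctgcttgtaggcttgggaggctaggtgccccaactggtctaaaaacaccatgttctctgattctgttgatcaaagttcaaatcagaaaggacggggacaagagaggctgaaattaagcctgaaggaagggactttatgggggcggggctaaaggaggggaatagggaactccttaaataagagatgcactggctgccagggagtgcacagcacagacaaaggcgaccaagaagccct
Fcer1a: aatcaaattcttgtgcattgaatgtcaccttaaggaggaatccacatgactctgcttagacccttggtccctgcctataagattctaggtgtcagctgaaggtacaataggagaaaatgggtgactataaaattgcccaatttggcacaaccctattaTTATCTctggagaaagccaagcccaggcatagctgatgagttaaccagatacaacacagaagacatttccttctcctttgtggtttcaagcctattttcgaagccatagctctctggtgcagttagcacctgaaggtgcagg
Both strands were searched for 4 motifs. The letters of the Maf type, part of a Maf recognition element, were TGCTGAC. Those of the AP-1 core, where N is any base, were TGANTCA. Those of the PU.1 type, bound by a factor of the macrophage lineage, were GAGGAAG. Those of the fourth type, named after the zinc finger factors of mast cells and blood progenitors, were AGATAA, called GATA letters here. None of the 4 contains another, and matches may overlap.

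The Hdc window held none of the 4, and the Fcer1a window held the GATA letters once, on the opposite strand, starting 92 bases before the start. Over all 32851 promoter windows, the Maf letters were present in 4.67%, the AP-1 letters in 7.81%, the PU.1 letters in 13.6% and the GATA letters in 11.2%. Among the 11 windows of the members, the Maf letters were in 0, the AP-1 letters in 1 (Hrh1), the PU.1 letters in 3 (1 of Hrh1 and both of Hrh2) and the GATA letters in 3 (Fcer1a, Hrh1 and Ms4a2). The Hrh2 windows run from 54191879 to 54192178 and from 54191883 to 54192182. They hold almost the same sequence, so their PU.1 matches are not separate. Some Hrh1 windows overlap as well. These matches describe letters and not binding sites. The sequences under the peaks were not analysed here.

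Hnmt encodes histamine N-methyltransferase, which inactivates histamine inside cells. It had 1 peak of the c-Maf antibody library of number 3, of 5 tags and a fold enrichment of 3.91, 4.49 kb outside the gene on chromosome 2. The library of number 4 had none within 50 kb, its nearest being 117 kb away. Isotype number 3 had 1 peak of 4 tags 42.3 kb outside the gene, and isotype number 4 had 1 of 4 tags inside it. Both antibodies thus left peaks of like size at Hnmt.

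Hrh1 encodes the H1 receptor, known for its part in allergic inflammation. The c-Maf antibody library of number 3 had 5 peaks, all outside the gene on chromosome 6, with 5 or 6 tags and fold enrichments of 2.93 to 4.27. The library of number 4 had 3 peaks, all inside the gene, with 5 tags each and fold enrichments of 3.71 to 4.02. The closest summits of the libraries lay 14.6 kb apart, so at Hrh1 no position was shared. The isotype lists had 1 peak each, of 6 tags inside the gene (number 3) and of 5 tags outside it (number 4).

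Hrh4 encodes the H4 receptor of blood cells. Both c-Maf antibody libraries had 2 peaks within 50 kb of it on chromosome 18, of 5 and 5 tags in number 3 and of 5 and 6 tags in number 4. The nearest was 1.08 kb outside the gene, in number 3. Their closest summits lay 8.29 kb apart. Isotype number 3 had 4 peaks of 4 or 5 tags, and isotype number 4 had none.

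Hrh2 encodes the H2 receptor, which signals through cyclic AMP. Its most enriched c-Maf antibody peak, in number 3, lay inside the gene on chromosome 13 at 54195102 to 54195168, with 7 tags, a fold enrichment of 5.18 and a −log10 q of 0.872. The same library had 2 more peaks outside the gene, of 4 and 7 tags, and the library of number 4 had 1 of 4 tags inside it, with its summit 8.39 kb from the nearest of number 3. An isotype number 3 peak of 5 tags had its summit 393 bp from the c-Maf antibody summit of 7 tags, without overlap.

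The isotype library of number 3 had 16 peaks within 50 kb of Hrh2, the most of any list at any member, and isotype number 4 had 2, of 5 and 6 tags. The 16 peaks make 11.1 peaks per 100 kb, against 2.09 over the windows of all protein-coding genes in the same list. In that list 1.53% of all genes had as many peaks or more, and 0.192% had at least that density. In the 500 kb beyond the window on either side the same list had 3.5 peaks per 100 kb. The 16 peaks had 3 to 7 tags with a median of 4, and 7 of them had 3 tags. Isotype number 3 was the only list with peaks of 3 tags, 18.8% of its total. At the lowest input level in its list, 0.419, 3 tags give a −log10 p of 2.05, past the authors' p-value of 0.01. At the lowest levels of the other lists 3 tags give 1.85 (c-Maf antibody number 3), 1.90 (c-Maf antibody number 4) and 1.98 (isotype number 4), short of it. All lists used the same input library, and their lowest input levels rose with the fragment length. That length was 53 bp in isotype number 3 and 56 bp in isotype number 4. In the c-Maf antibody lists it was 63 bp (number 3) and 60 bp (number 4).

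Fcer1g encodes the gamma chain, and Ms4a2 the beta chain. At Fcer1g, on chromosome 1, the c-Maf antibody library of number 3 had 2 peaks of 7 and 5 tags, 24.0 kb and 12.1 kb outside the gene. Both lay nearer to Nr1i3, a nuclear receptor gene, than to Fcer1g. The library of number 4 had none, its nearest being 86.4 kb away. Isotype number 3 had 5 peaks of 3 to 7 tags, and isotype number 4 none. At Ms4a2, on chromosome 19, neither c-Maf antibody library had a peak, the nearest being 64.3 kb (number 3) and 97.9 kb (number 4) away. Isotype number 4 had 1 of 5 tags, and isotype number 3 none. Fcer1a was chosen for its shared position, so its difference from the other chain genes was not tested.

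Apart from the Hdc and Fcer1a sites, the 60 other peaks had 3 to 7 tags and fold enrichments of 2.76 to 5.51, and 0 of them had a q-value of 0.05 or smaller. Such q-values were rare in every list, at 717 of 23434 peaks in c-Maf antibody number 3 and 505 of 17620 in number 4. In the isotype lists they were 244 of 58732 (number 3) and 408 of 15568 (number 4), so the 0 is not particular to these genes. The median fold enrichment at the members was 3.90 in c-Maf antibody number 3, 3.97 in c-Maf antibody number 4, 3.46 in isotype number 3 and 4.05 in isotype number 4. Over all peaks of the same lists the medians were 3.89, 3.96, 3.46 and 4.02. Within the c-Maf antibody lists the Hdc peaks were the only ones at the members above the 99th percentile, which was 5.85 in number 3 and 6.03 in number 4. In isotype number 3, where it was 5.45, a peak of 5.51 (171200794 to 171200862) in the Fcer1g window also exceeded it. That peak lay 28.7 kb from Fcer1g and nearer to Pcp4l1. In isotype number 4, where the percentile was 6.04, no peak at a member exceeded it. Peaks outside the member and nearer to another gene were 5 of 20 (number 3) and 1 of 8 (number 4) with the c-Maf antibody. With the isotype they were 15 of 31 (number 3) and 2 of 5 (number 4). The farthest peak counted lay 48.7 kb from its gene, and the nearest peak left out lay 50.9 kb from one.

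**Figure D3:**
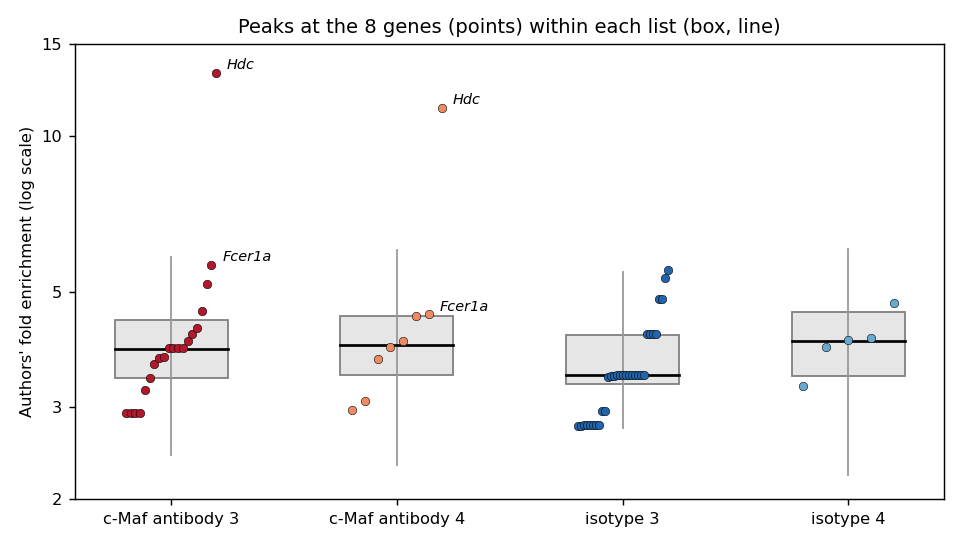
Authors' fold enrichment of each peak at the 8 members (points, log axis) within each of the 4 lists. Boxes span the 25th to 75th percentile of all peaks of the list, the bar is the median and the line spans the 1st to 99th percentile. The Hdc peaks, at 13.2 and 11.3, stand above the line in both c-Maf antibody lists, and the Fcer1a peaks, at 5.64 and 4.53, lie within it.

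A peak within 50 kb of a gene was common in every list. With the c-Maf antibody 7 members (number 3) and 5 members (number 4) had one, beside 66.7% and 53.8% of all protein-coding genes. With the isotype 7 members (number 3) and 4 members (number 4) had one, beside 85.0% and 47.3%. A peak of both c-Maf antibody lists, overlapping or not, lay near 5 members, beside 39.3% of all genes. Members had 1.92 peaks per 100 kb in c-Maf antibody number 3 and 0.767 in number 4, against 2.97 in isotype number 3 and 0.480 in isotype number 4. Over the windows of all genes the densities were 0.958, 0.667, 2.09 and 0.572 in the same order. The densities at the members were thus the higher ones in both c-Maf antibody lists and in isotype number 3, and the lower one in isotype number 4, with no test. In c-Maf antibody number 3, 5 of the 20 peaks lay at Hrh1, and in isotype number 3, 16 of the 31 lay at Hrh2. Within 5 kb both sites still counted, beside 1.22% of all genes. With a q-value of 0.05 or smaller asked of both c-Maf antibody peaks, Hdc alone of the members kept a region within 50 kb, beside 0.302% of all genes.

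Of 47 other protein-coding genes listed for histamine handling, IgE receptor signalling, other immunoglobulin Fc receptors and mast cells and basophils, 3 lay within 50 kb of a c-Maf-only region, beside the 3.17% of all genes. They were 0 of 10 genes of histamine breakdown, transport and the H3 receptor, 1 of 16 signalling genes, 2 of 7 Fc receptor genes and 0 of 14 mast cell and basophil markers, among them Kit, Cpa3 and Gata2. No listed gene had an isotype-only region.

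The signalling gene was Fyn, a Src family kinase, with a region inside it on chromosome 10 at 39458992 to 39459185. It had 7 tags and a fold enrichment of 2.60 in c-Maf antibody number 3, and 6 tags and 3.46 in number 4, below the median fold enrichment of both lists. The Fc receptor genes were Fcgr4 and Fcgr2b, an activating and an inhibitory receptor for immunoglobulin G, which share 1 region on chromosome 1 at 170998264 to 170998460. It lay 20.5 kb from Fcgr4, 22.2 kb from Fcgr2b and 231 kb from Fcer1g. Its peak in number 3 was strong, with 14 tags and a fold enrichment of 9.50 (place 13 in the list), while that in number 4 had 6 tags and a fold enrichment of 3.46.

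**Figure D4:**
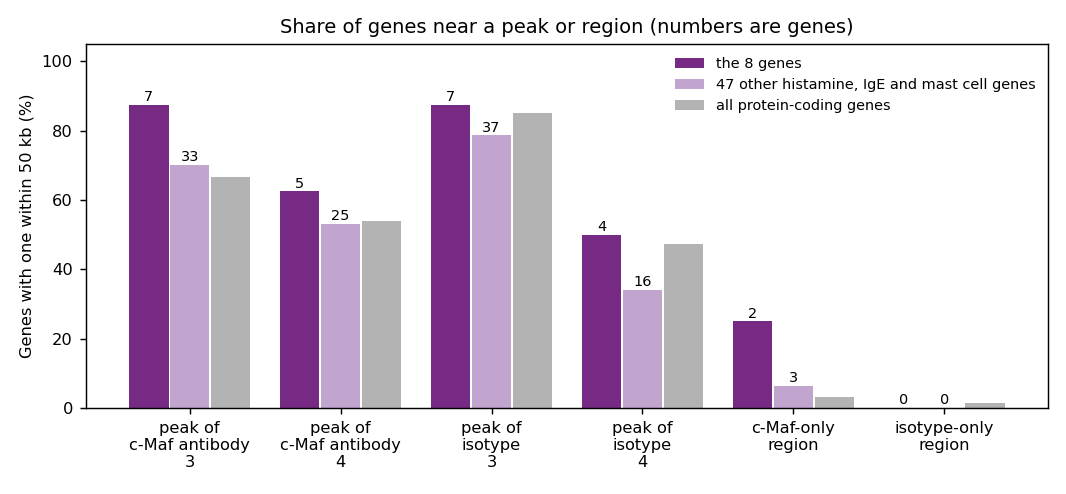
Percent of genes with a peak of each list, a c-Maf-only region or an isotype-only region in the gene or within 50 kb, for the 8 members, the 47 other listed genes and all protein-coding genes, with the number of genes printed above the bars of the lists. Single lists reach 7 and 5 members (c-Maf antibody) and 7 and 4 (isotype), and c-Maf-only regions reach 2.

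Genes with a site like that of Hdc were sought among the 61 protein-coding genes that have a c-Maf-only region outside the span and within 5 kb. Likeness was the distance in log2 fold enrichment over the 2 c-Maf antibody libraries. Slc27a2 shares the region of Hdc itself. The next were Ipo7 and Zfp143, which share a region on chromosome 7 with fold enrichments of 8.10 (number 3) and 7.08 (number 4), at a distance of 0.97. Eif4ebp1 followed at 1.19, with fold enrichments of 6.81 and 6.89, and Akr7a5 at 1.24, with 7.47 and 5.95 at a region that lies inside Slc66a1 and 2.47 kb from Akr7a5. No other region among these genes reached the fold enrichment of the Hdc site in either library. Hdc was chosen by these values and stood at place 1 in the list of number 4, so there the outcome was given in advance. Several were close to that of Fcer1a. The region shared by C1qa and C1qc, chains of complement C1q, had 5.46 and 4.45 at a distance of 0.05. Bphl followed at 0.11, with 6.10 and 4.60 at a region that lies inside Tubb2a and 2.72 kb from Bphl, and then the region shared by Ddx28 and Dpep2 at 0.26, with 5.01 and 5.18.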

How the data were processed

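Per the file headers, the authors called peaks in each library separately with MACS 2.1.1.20160309, at a p-value of 0.01, keeping 1 tag per position, against the input of number 4, and with the human genome size setting. The submitters' processing notes name mm10, FastQC, MACS 1.4.2 and MACS2, and for the aligner a name is not given in the sources used. The deposited pileup signal is the tag coverage at the summit, scaled by the authors to the smaller library. The deposited fold enrichment is the ratio of pileup to local input level, and the deposited −log10 p-value and q-value are those of a Poisson test. The input level was worked back from the fold with 1 added to both parts, and the p-values recomputed from it matched the deposited ones within 0.02 for 99.99% of peaks in c-Maf antibody number 4 and 100% in the other lists. Being the authors' scores, they served to describe and rank peaks within a list.

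With python 3.11.15 and pandas 2.3.3, peaks of the 4 lists overlapping by 1 bp or more were merged into regions. The steps were tested on simulated data. Genes are spans in a RefSeq table of GRCm38.p6, which has the coordinates of mm10, and distances run from the span boundary. Of 48 listed genes, 1 (Tpsab1) is no protein-coding gene there and was left out. The members and gene lists were chosen with earlier results of these data known, so no test was made of them. The genes named are the members, those listed genes that had a c-Maf-only region, and the 5 most like Hdc and Fcer1a. The design text speaks of biological replicates, and no label says that a number marks a shared animal or day.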

Additional observations from a re-analysis of the deposited data

How the results depend on the processing

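The Hdc site was found in every setting tried. The Fcer1a site was lost at a p-value of 1e-05 or smaller, at a q-value of 0.05 or smaller and at 50% reciprocal overlap, each of which left 1 member with a c-Maf-only region. The count stayed at 2 within 5 kb, 10 kb and 100 kb, at equal list lengths, with summits within 200 bp, with peaks of 4 or more tags (a setting chosen after seeing the data) and without either isotype library, and lay between 2 and 7 with 1 library left out. It was 5 without c-Maf antibody number 3 and 7 without number 4, where a lone list is not filtered by a replicate. Of the 47 other listed genes, 1 had a region within 5 kb, 1 within 10 kb, 6 within 100 kb, 0 at p of 1e-05 and 0 at q of 0.05, with a range of 3 to 32 with 1 library left out. The share of all genes was 1.22% within 5 kb, 1.48% within 10 kb, 5.33% within 100 kb, 0.658% at p of 1e-05, 0.32% at q of 0.05 and 1.88% at 50% reciprocal overlap, with a range of 3.26% to 65.75% with 1 library left out. The 0.302% given earlier was counted otherwise. It asked the q-value of both c-Maf antibody peaks, in regions without an isotype peak of any q-value. Stricter settings keep fewer peaks by construction. As a plain ratio the mean enrichment was 28.9 at Hdc and 12.6 at Fcer1a. The authors' fold enrichment, with 1 added to both parts, ranged from 11.3 to 13.2 at Hdc and from 4.53 to 5.64 at Fcer1a with 1 c-Maf antibody library left out.

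No test was made, so the number could not enter one. With isotype peaks removed within each number only, as a replicate block, the counts were 2 members, 3 listed genes and 3.18% of all genes. With so few tags in most peaks, a position missing from a list is not shown to lack coverage.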
